A study of Mus musculus with 60 samples.

Results

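The mRNAs of 9 enzymes that consume NAD+ were examined in mouse kidney: the sirtuins Sirt1, Sirt2, Sirt3, Sirt4, Sirt5, Sirt6 and Sirt7, the poly(ADP-ribose) polymerase Parp1, and the NAD+ hydrolase Cd38. They were chosen by name and matched to Ensembl identifiers through GENCODE symbols, and all 9 were among the 15546 transcripts retained from 55335 gene rows. RNA was sequenced from 60 male mice, in 12 groups of 5 that combined 2 genotypes with 6 time points placed 4 h apart. Conditional knockout (cKOt) mice were Bmal1lox/lox animals that also carried Pax8-rtTA and LC1-Cre, which delete Bmal1 in the renal tubule when doxycycline is given. Control mice were Bmal1lox/lox littermates without the transgenes. Both genotypes were on a C57BL/6J background, drank doxycycline for 2 weeks from 8 weeks of age, and were killed 4 weeks after it ended. They were kept in 12 h of light and 12 h of darkness with free access to food, and zeitgeber time (ZT) 0 is lights on.

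NAD+ is a carrier of electrons, but these enzymes break it. Sirtuins remove acetyl and other acyl groups from lysines and use up 1 NAD+ for each group, releasing nicotinamide. PARP1 cuts NAD+ to build chains of ADP-ribose on proteins at broken DNA, and CD38 hydrolyses NAD+ and makes the calcium messenger cyclic ADP-ribose. Nicotinamide is turned back into NAD+ by the salvage pathway, whose rate-limiting enzyme, NAMPT, is under the control of the circadian clock in several tissues. BMAL1 is the transcription factor that pairs with CLOCK on E-box sequences, and SIRT1 binds this pair and deacetylates BMAL1 and PER2. The comparison addressed here is whether the transcripts of the NAD+ consumers, and not only those of NAD+ synthesis, differed in level or daily rhythm when the tubular clock was deleted. Only mRNA was counted, so enzyme activity and NAD+ use were not measured.

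The samples carried between 17791420 and 20906706 counts on genes. Their labels name the renal tubule, whereas the methods describe frozen pieces of whole kidney, and the defining transcripts of podocytes (Nphs1) and endothelium (Pecam1, Kdr, Emcn) had counts in all samples, as did those of the proximal tubule (Lrp2, Slc34a1, Slc5a2, Cubn), whose sum was 7190 to 12500 CPM. Arntl, which encodes BMAL1, ranged from 2.73 ± 0.825 CPM (SD, n = 5) at ZT8 to 48.4 ± 10.2 at ZT0 in control mice. In cKOt mice it stayed between 17.4 ± 2.01 at ZT12 and 24.4 ± 1.57 at ZT0, and its genotype difference varied over the day (edgeR interaction test, adjusted p = 4.86e-16). Counts over the whole gene do not show the deleted exon by itself. The authors kept 5 mice of a larger number in each group after judging RNA integrity and distance from the other replicates, so the spread between mice may be understated. They also marked 1 cKOt mouse at ZT16 for removal. Its deposited sample was used with its label, and leaving it out changed no call on a member.

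BMAL1 and CLOCK bind the E-box CACGTG, so the 250 bases before each RefSeq start (GRCm38.p6) were searched for it. The search also took in the related E-prime box CACGTT, the D-box TTATGTAA bound by the PAR bZIP factors, and TAGGTCA, the site of the ROR and REV-ERB receptors. Both strands were read, and all 9 members had a promoter in the table. An E-box was found in the Sirt1 promoter, at 115 and 43 bases before the start, and in the Parp1 promoter, at 49 bases before it. Over all 32851 promoters of the same length, 6.02% held an E-box. The Sirt1 window held 79.2% G and C and 39 CG pairs, and the Parp1 window 61.6% and 16. Medians over all promoters were 52.4% and 6, so the share of 6.02% is not matched to these windows in composition. The ROR site was found in Sirt5 alone, on the opposite strand at 196 bases before the start, and 2.23% of all promoters held it. None of the 4 motifs was found in the windows of Sirt2, Sirt3, Sirt4, Sirt6, Sirt7 and Cd38. The E-prime box and the D-box, present in 3.85% and 0.819% of all promoters, were in none of the 9. These matches are letters in a window and not measured binding. The 30 bases around each match are printed because they are the stretches in which the deleted factor, or the receptors of its feedback loop, could in principle be read, with the motif in capitals and the strand of the gene.
Sirt1, chr10:63339133-63339162, minus strand: gcggcgcccggcCACGTGacccggcgtgtt
Sirt1, chr10:63339061-63339090, minus strand: ggaggggcgggtCACGTGacggggtttaaa
Parp1, chr1:180568830-180568859, plus strand: acctcccaaggaCACGTGctgaagccccgc
Sirt5, chr13:43365327-43365356, plus strand: gtaggtagttctTGACCTAtttgggcagtg

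All 9 mRNAs were present in all 60 kidneys, and their levels differed by more than 10-fold between the highest and the lowest. Levels were compared per length, as RPKM over the merged exons of each gene. The mitochondrial deacetylase Sirt3 had the highest level, 16.9 ± 1.67 RPKM (SD, n = 60), which placed it at the percentile 83.5 of the retained transcripts. The cytoplasmic tubulin deacetylase Sirt2 followed at 11.0 ± 1.48 RPKM, and Sirt3 exceeded it in all 60 mice. Sirt2 in turn exceeded Sirt7, the nucleolar deacetylase, in all 60 mice.

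**Figure D1:**
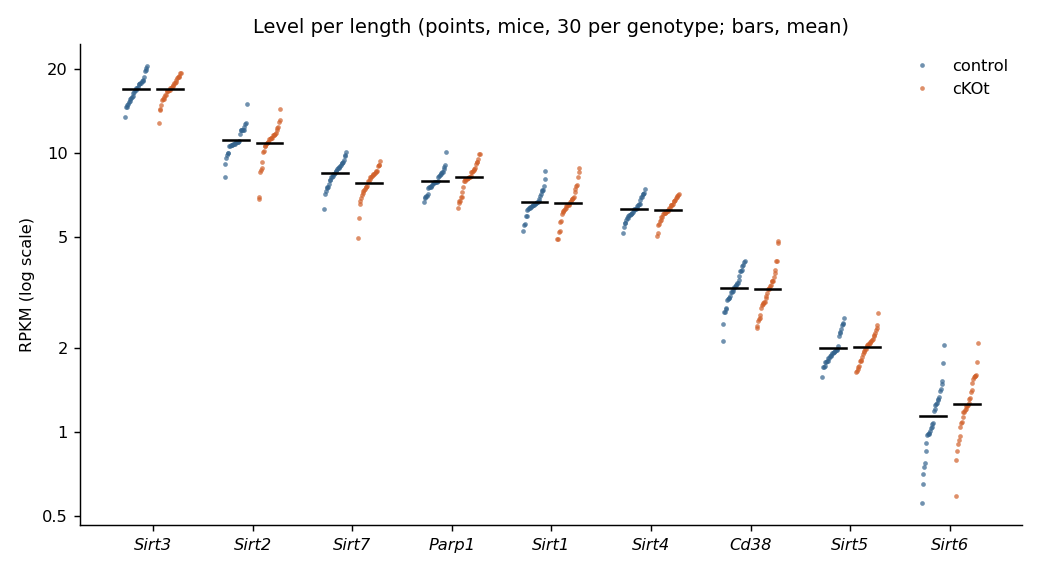
Level per length of each enzyme in RPKM on a log axis, with a point for each of 30 control (blue) and 30 cKOt (orange) mice and a bar at the mean. Sirt3 lies highest at 16.9 RPKM and Sirt6 lowest at 1.20 RPKM, and the genotypes overlap for each gene.

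Sirt7 (8.14 ± 0.975 RPKM) and Parp1 (8.04 ± 0.864) could not be ordered, since Sirt7 was higher in 32 of 60 mice. The nuclear deacetylase Sirt1 was at 6.62 ± 0.840 RPKM and lay under Parp1 in 51 of 60 mice. Sirt1 and the mitochondrial Sirt4, at 6.26 ± 0.543 RPKM, were close, with Sirt1 higher in 39 of 60 mice. Cd38 came next at 3.25 ± 0.554 RPKM, under Sirt4 in all 60 mice. Sirt5, which removes succinyl and malonyl groups in mitochondria, was at 2.01 ± 0.250 RPKM and lay under Cd38 in 58 of 60 mice. Sirt6, a deacetylase of histone H3 that takes part in DNA repair, was lowest at 1.20 ± 0.324 RPKM, and its counts ran from 27 to 113 per mouse. Its values are thus the least precise of the 9. The exons of Sirt3 share 418 bases with Ric8a and 342 with Psmd13 on the opposite strand, and those of Sirt7 share 124 bases with Mafg on the same strand. The strand setting of the counting is not given in the sources used here, so a share of reads in those stretches cannot be assigned with certainty.

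Deletion of the tubular clock was accompanied by small differences in mean level for 3 of the 9 enzymes and by none past the threshold for the other 6. Averaged over the 6 time points, Sirt7 fell by 6.98% in cKOt mice, Sirt6 rose by 13.9%, and Parp1 rose by 4.12%. By the same test, 50.0% of all retained transcripts differed between genotypes, 26.8% being higher and 23.2% lower in cKOt mice, so a share of 3 in 9 was not above the background. Among the transcripts between the lowest and the highest member in mean CPM, 53.0% differed, and without the RUVs factors 41.0% of all transcripts did. The median size of the difference was 0.031 on the log2 scale over the 9 members and 0.10 over all retained transcripts. Ranges of control and cKOt mice overlapped for each member at each time point. They were apart for 7.30%, 11.1%, 9.49%, 9.73%, 9.04% and 6.86% of all transcripts at ZT0 to ZT20. At such shares few of 9 genes would be apart at a given time point, so the overlap was not read as particular to the members.

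**Figure D2:**
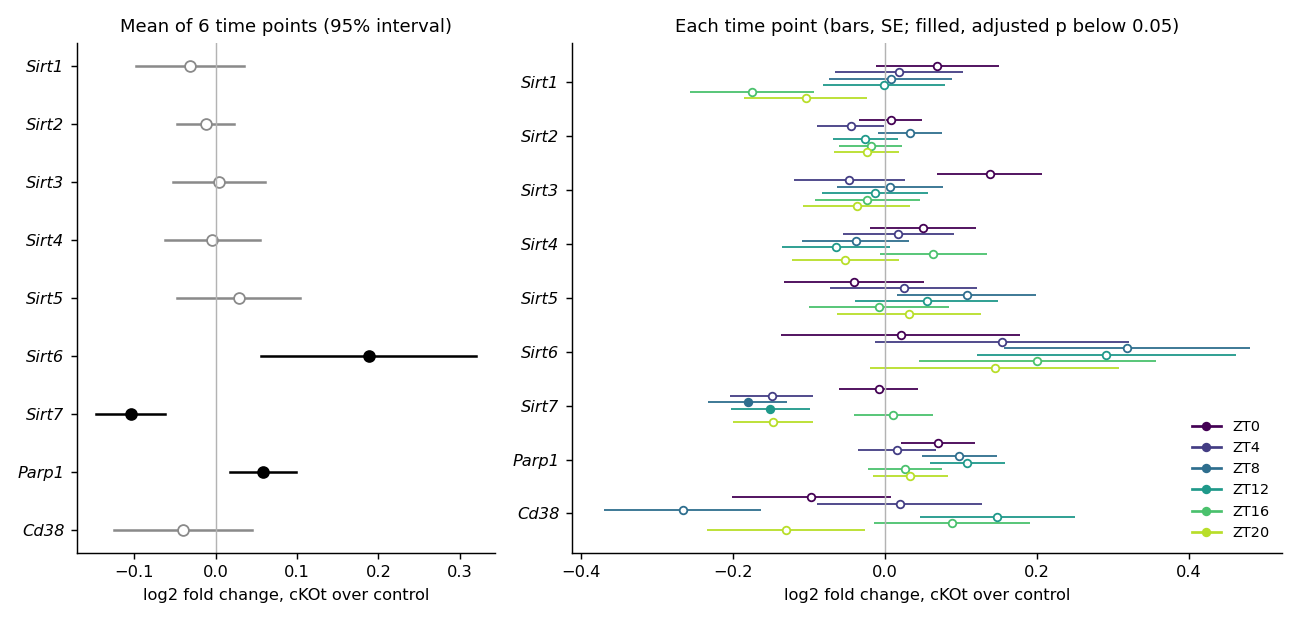
Log2 fold change of cKOt over control for the 9 enzymes, averaged over 6 time points with 95% intervals (left) and at each time point with SE (right). Filled points passed an adjusted p of 0.05, and Sirt7 is the only member with filled points on the right, at ZT8 and ZT12.

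Among the nuclear sirtuins, Sirt7 (ENSMUSG00000025138, chr11:120618372-120625240, minus strand, GRCm38 as for all positions here) had the clearest difference. It ran from 32.4 CPM through a median of 43.9 to 51.7 CPM in the 30 control mice. In the 30 cKOt mice it ran from 25.5 through 41.0 to 48.3 CPM. The distributions were shifted but overlapped over most of their range. The log2 fold change was -0.10 ± 0.021 (SE, edgeR quasi-likelihood test, adjusted p = 4.19e-05), and SIRT7 is known for removing acetyl groups from histone H3 and for its place at ribosomal genes.
At ZT4, Sirt7 was at 39.0, 47.2, 47.6, 48.7 and 49.9 CPM in control mice and at 25.5, 37.4, 41.3, 42.2 and 42.6 CPM in cKOt mice. At ZT8 the control mice had 38.4, 45.4, 45.5, 45.9 and 46.6 CPM, and the cKOt mice 34.6, 36.8, 42.1, 46.1 and 46.6 CPM. At ZT12 the control mice had 36.7, 39.9, 41.1, 43.7 and 51.7 CPM, and the cKOt mice 30.2, 33.6, 39.2, 40.7 and 40.7 CPM. At ZT4, 4 of 5 control mice lay above all cKOt mice, and at ZT8 and ZT12 the groups were mixed. The tests at ZT8 and ZT12 passed, with log2 fold changes of -0.18 ± 0.052 (adjusted p = 0.00864) and -0.15 ± 0.052 (adjusted p = 0.0309). By the same tests, 19.9% and 21.0% of all transcripts passed. At ZT4 (-0.15, adjusted p = 0.0606) and ZT20 (-0.15, adjusted p = 0.0507) the estimates were of like size without passing, and at ZT0 and ZT16 they were -0.01 and 0.01. These differences between time points did not pass the interaction test (unadjusted p = 0.0389, adjusted p = 0.308 in edgeR). The mean difference of Sirt7 held in all 14 alternatives run, with adjusted p from 9.29e-07 to 0.0149. The calls at ZT8 and ZT12 did not hold without the RUVs factors (adjusted p = 0.576 and 0.184) or with the library batch in their place (0.551 and 0.176). The call at ZT8 was also lost without replicate 4. That at ZT12 was also lost without the filter on low counts and without replicate 1 (-0.07, adjusted p = 0.412), 3, 4 or 5.

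Sirt6 (ENSMUSG00000034748, chr10:81621785-81627797, minus strand) ran from 1.55 through a median of 2.99 to 5.69 CPM in control mice and from 1.64 through 3.45 to 5.81 CPM in cKOt mice. The ranges were nearly the same, with the middle of the cKOt mice higher. The log2 fold change was 0.19 ± 0.066 (adjusted p = 0.0148, edgeR), and the estimate was above 0 at all 6 time points, from 0.02 at ZT0 to 0.32 at ZT8, with none of them past the threshold. Without the RUVs factors it was 0.15 (adjusted p = 0.177), with the library batch in their place 0.14 (adjusted p = 0.248), and without replicate 2 it was 0.15 (adjusted p = 0.106). The call on Sirt6 therefore rested on the correction and on replicate 2.

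Sirt1 (ENSMUSG00000020063, chr10:63319005-63381704, minus strand), which acts on PGC-1α, FOXO factors and p53, did not pass. It ran from 28.0 through 34.9 to 45.7 CPM in control mice and from 26.2 through 34.7 to 47.0 CPM in cKOt mice. The medians lay closer to each other than the mice of either genotype. The log2 fold change was -0.03 ± 0.033 (adjusted p = 0.455, edgeR), with a 95% interval from -0.10 to 0.04, which leaves room for a fall of 6.54% or a rise of 2.48%. Its lowest estimate among the time points was -0.18 at ZT16, where the unadjusted p was 0.0357 and the adjusted p 0.126.

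Sirt2 (ENSMUSG00000015149, chr7:28766735-28788661, plus strand), of the cytoplasm, had the narrowest interval of the 9. It ran from 41.2 through 54.8 to 75.3 CPM in control mice and from 34.3 through 56.3 to 72.3 CPM in cKOt mice. The lowest mouse was a cKOt mouse and the highest a control mouse. Its difference in log2 CPM was -0.01 ± 0.017 (adjusted p = 0.574, edgeR), with a 95% interval from -0.05 to 0.02. Sirt2 was also the member whose spread between mice fell most with the RUVs factors, from an SD of 0.193 to 0.060 on the log2 scale within groups. For Sirt7 it went from 0.166 to 0.078 and for Parp1 from 0.140 to 0.072, against 0.196 to 0.149 for the median transcript. Part of what separated the mice in these genes was thus shared with many other transcripts within groups.

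None of the mitochondrial sirtuins differed in mean level by more than the spread between mice. Sirt3 (ENSMUSG00000025486, chr7:140863666-140882309, minus strand), which deacetylates enzymes of fatty acid oxidation and the respiratory chain, ran from 80.0 through 100.9 to 122.3 CPM in control mice and from 76.2 through 101.1 to 115.5 CPM in cKOt mice. The log2 fold change of Sirt3 was 0.00 ± 0.028 (adjusted p = 0.922, edgeR), with a 95% interval from -0.05 to 0.06. Sirt4 (ENSMUSG00000029524, chr5:115478010-115484725, minus strand), known as a lipoamidase and ADP-ribosyltransferase of the matrix, ran from 12.4 to 17.8 CPM in the control and from 12.1 to 17.1 CPM in the cKOt animals. Its interval went from -0.06 to 0.05 (adjusted p = 0.921). For Sirt5 (ENSMUSG00000054021, chr13:43365496-43395203, plus strand) the ranges were 9.60 to 15.7 and 10.0 to 16.3 CPM, and the interval went from -0.05 to 0.10 (adjusted p = 0.559). In all 3 the ranges of the genotypes nearly coincided.

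Parp1 (ENSMUSG00000026496, chr1:180568924-180601254, plus strand) ran from 35.2 through 41.5 to 53.4 CPM in control mice and from 33.7 through 43.2 to 52.4 CPM in cKOt mice. The cKOt mice were spread more widely and their median lay slightly higher. The log2 fold change was 0.06 ± 0.020 (adjusted p = 0.0129, edgeR), and the 6 estimates by time, from 0.02 (ZT4) to 0.11 (ZT12), were above 0 without passing the threshold. The difference was 0.04 without the RUVs factors (adjusted p = 0.334), 0.04 with the library batch in their place (adjusted p = 0.395) and 0.03 without replicate 2 (adjusted p = 0.297), and it had an adjusted p of 0.0587 without the filter on low counts.

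Cd38 (ENSMUSG00000029084, chr5:43868553-43912375, plus strand) ran from 8.21 through 12.8 to 16.0 CPM in control mice and from 9.19 through 12.5 to 18.7 CPM in cKOt mice. The genotypes covered much the same range over the day. The mean difference in log2 was -0.04 ± 0.042 (adjusted p = 0.453, edgeR), with a 95% interval from -0.13 to 0.05. At ZT8 it was at 11.7, 13.3, 15.4, 15.8 and 16.0 CPM in control mice and at 9.19, 11.1, 11.2, 12.7 and 13.5 CPM in cKOt mice. At ZT12 the order was turned: the control mice had 11.7, 12.4, 13.1, 13.3 and 15.2 CPM, and the cKOt mice 13.5, 13.9, 14.8, 16.0 and 18.5 CPM. At both times 1 or more mice of each genotype lay inside the range of the other. The estimates were -0.27 ± 0.10 at ZT8 (adjusted p = 0.059) and 0.15 ± 0.10 at ZT12 (adjusted p = 0.343), and the interaction test gave an adjusted p of 0.394. At ZT8, Cd38 passed with DESeq2 size factors (-0.29, adjusted p = 0.0408), in the DESeq2 test (-0.29, 0.0364), with the replicate block (-0.27, 0.0391) and without replicate 4 (-0.31, 0.0349).

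In no member did the genotype difference vary over the day past the threshold (0 of 9 in edgeR, and 0 of 9 in DESeq2 and limma-trend). By the edgeR test 3.08% of all transcripts passed, so 0 of 9 was near the background. At an unadjusted p under 0.05, Sirt7 alone was counted. At ZT0, ZT4, ZT16 and ZT20 no member passed in edgeR, where 12.1%, 12.5%, 19.8% and 13.8% of all transcripts did. At an unadjusted p under 0.05 there were 0 members at ZT0 and 1 at each of ZT4 (Sirt7), ZT16 (Sirt1) and ZT20 (Sirt7). DESeq2 called 1 member, Sirt7, at ZT4 and at ZT20, and limma-trend called 0 at these 4 times.

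The libraries were made in 6 batches, each with both genotypes. In each batch the genotypes were compared in uncorrected log2 CPM at the time points with both of them, and these differences were averaged. The difference of Sirt7 was negative in 5 of 6 batches, from -0.21 to 0.04. It was close to 0 in batch 6 (-0.0066), which had 2 such time points. For Sirt6 it was positive in 4 of 6 batches, from -0.38 to 0.82, and for Parp1 in 3 of 6, from -0.08 to 0.28. The direction of Sirt7 was thus shared by most batches, and that of Parp1 was not. Within a batch the time points were not balanced between genotypes.

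Several of these enzymes are also made by cells outside the tubule, and Cd38 in particular is known from immune cells and endothelium. In bulk kidney, fewer cells of a type and less RNA per cell cannot be told apart. In the edgeR test with the RUVs factors, markers of macrophages were lower in cKOt mice for 4 of 4 genes and of endothelium for 3 of 3. Those of fibroblasts were lower for 3 of 3 and of T cells for 3 of 3 retained genes. By the same test, 23.2% of all transcripts were lower. The summed macrophage level ran from 15.9 to 43.5 CPM in control and from 16.4 to 31.3 CPM in cKOt mice, that of endothelium from 228 to 289 and 200 to 281 CPM, and that of T cells from 1.59 to 5.18 and 1.05 to 2.85 CPM. The summed fibroblast level ran from 37.6 to 126 and from 46.4 to 115 CPM. The medians of these sums in control and cKOt mice were 28.1 and 24.8 CPM for macrophages and 94.5 and 81.2 CPM for fibroblasts. They were 2.43 and 1.78 CPM for T cells and 253 and 256 CPM for endothelium. Without the RUVs factors the median endothelium level was thus not lower in cKOt mice. The B cell marker Cd79b was retained, had counts in all samples and went from a mean of 0.558 CPM to 0.463 CPM in cKOt mice (-0.39, adjusted p = 0.00747, edgeR). The B cell markers Cd79a and Ms4a1 were under 1 CPM in all samples and at 0 in 3 and 17 of them. The liver markers Alb and Serpina1a were lower in cKOt mice, with a sum from 21.3 to 40.7 CPM in control and from 2.48 to 13.1 CPM in cKOt mice. The part of these cells in the values of the 9 enzymes was not tested.

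Across the day, 2 of the 9 enzymes were assigned a rhythm, and in both the model with the same rhythm in control and cKOt mice was chosen. These were Sirt3 and Cd38, and 37.3% of all transcripts were assigned a rhythm in at least 1 genotype, 25.2% to the model of an unaltered rhythm. The choice was made among 5 harmonic models with a period of 24 h by their weight under the Bayesian information criterion (BIC), with an assignment at a weight of at least 0.65. It was made on log2 CPM values from which the RUVs factors had been removed. Sirt1, Sirt2, Sirt5 and Sirt7 were assigned to the model without a rhythm, as were 34.0% of all transcripts. Sirt4, Sirt6 and Parp1 stayed unassigned, as did 28.7%.

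**Figure D3:**
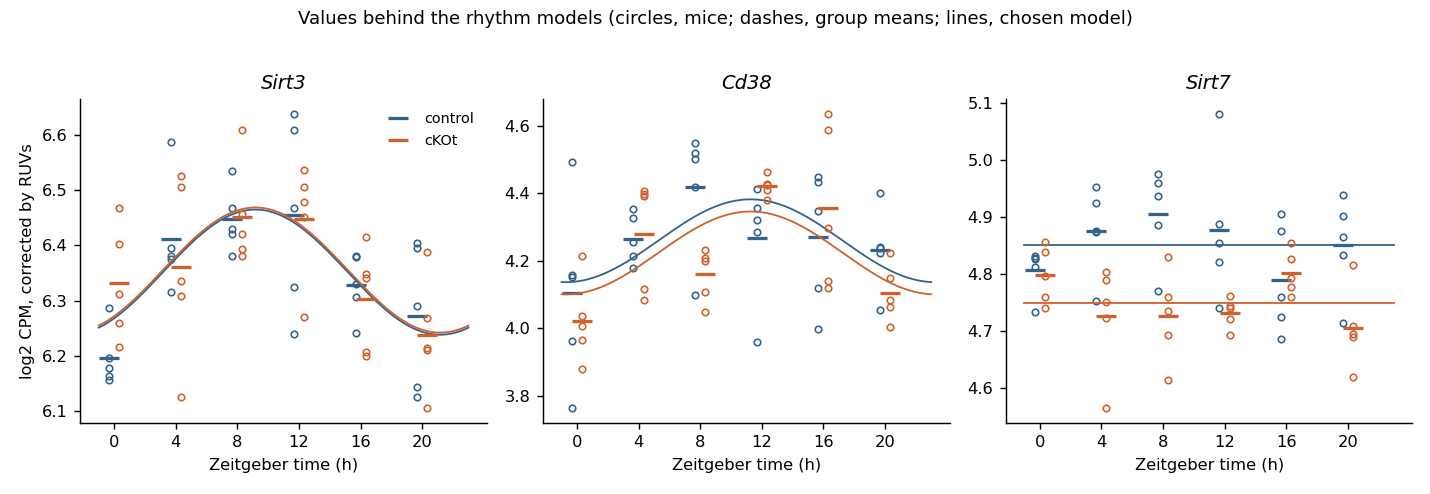
Log2 CPM after removal of the RUVs factors against zeitgeber time for Sirt3, Cd38 and Sirt7, with circles for mice, dashes for group means and lines for the chosen model. For Sirt3 and Cd38 the chosen model fits 1 curve shape shared by control and cKOt mice, with peaks at 9.17 and 11.3 h. For Sirt7 it fits 2 flat levels.

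In control mice Sirt3 mRNA had like means at ZT4, ZT8 and ZT12, of 106.4, 106.2 and 107.3 CPM. In cKOt mice its highest mean, 108.7 CPM, was at ZT8. In control mice it was at 87.0, 87.0, 89.4, 93.0 and 95.5 CPM at ZT0 and at 91.6, 94.2, 111.3, 116.9 and 122.3 CPM at ZT12. In cKOt mice it was at 102.8, 106.0, 111.1, 111.5 and 111.9 CPM at ZT8 and at 85.1, 86.0, 88.3, 94.2 and 100.6 CPM at ZT20. In cKOt mice the groups of ZT8 and ZT20 did not overlap, and in control mice those of ZT0 and ZT12 overlapped slightly. These groups were chosen as the highest and lowest means of each genotype, so their separation is no added evidence of a rhythm. The shared rhythm had a BIC weight of 0.972, a peak at 9.17 ± 0.659 h (SE) and a peak-to-trough amplitude of 0.23 ± 0.039 on the log2 scale, or 1.17-fold. Fitted apart, the peaks were at 9.59 ± 0.845 h in control and 8.64 ± 1.04 h in cKOt mice, with amplitudes of 0.25 ± 0.056 and 0.20 ± 0.056. The median amplitude of the transcripts assigned a rhythm was 0.29 in control and 0.27 in cKOt mice, so Sirt3 lay slightly under the typical rhythmic transcript. Without a cosine shape, the test of any difference among the 6 time points passed in control mice for Sirt3 alone of the 9 (edgeR, adjusted p = 0.00791), and for 30.6% of all transcripts. In cKOt mice its adjusted p was 0.0707, and that the rhythms differ was not shown by the interaction test (adjusted p = 0.778). The control call was lost without the RUVs factors (adjusted p = 0.0578), with the library batch in their place (0.0592) and without replicate 1 (0.112), and without replicate 2 Sirt3 was not assigned to a rhythm model.

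Cd38 mRNA was low at lights on and higher around lights off. At ZT0 the control mice had 9.48, 10.45, 10.5, 11.7 and 14.6 CPM and the cKOt mice 9.34, 9.90, 9.99, 10.2 and 13.1 CPM. In cKOt mice all 5 values at ZT12 lay above those at ZT0, the groups with the highest and lowest means, chosen for that reason. The shared rhythm had a BIC weight of 0.762, a peak at 11.3 ± 0.977 h and an amplitude of 0.25 ± 0.063, or 1.19-fold. Fitted apart, the amplitudes were 0.20 ± 0.089 in control and 0.31 ± 0.089 in cKOt mice, with peaks at 9.89 ± 1.69 h and 12.1 ± 1.09 h, which differ by about their errors. The test among the 6 time points passed in cKOt mice for Cd38 alone of the 9 (edgeR, adjusted p = 0.00919), where 26.6% of all transcripts passed. In control mice its adjusted p was 0.242. The interaction test did not show a difference between these (adjusted p = 0.394). The cKOt call was lost without replicate 2 (adjusted p = 0.082) and without replicate 5 (0.071), and the rhythm model was lost without them, without the RUVs correction (weight 0.622), with the library batch regressed out and at a weight of 0.8.

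Sirt6 had the widest ratio of the highest to the lowest group mean, 1.48 in control and 1.49 in cKOt mice, with the lowest mean at ZT12 in both. Its SD within groups was 0.356 on the log2 scale, the largest of the 9, and its best rhythm model had a weight of 0.422. For the other members the ratio ran from 1.11 (Sirt4 and Sirt7 in control mice) to 1.46 (Cd38 in cKOt mice). Parp1 was highest at ZT16 in both genotypes, with 45.1 ± 4.85 CPM (SD, n = 5) in the control group and 46.8 ± 2.15 in the cKOt group. Its lowest means were 39.1 ± 2.81 CPM at ZT8 in control and 39.5 ± 5.74 CPM at ZT4 in cKOt mice. The time tests for Parp1 gave adjusted p = 0.152 in control and 0.195 in cKOt mice (edgeR), which did not pass. Without replicate 2 the test in cKOt mice passed (adjusted p = 0.0459).

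**Figure D4:**
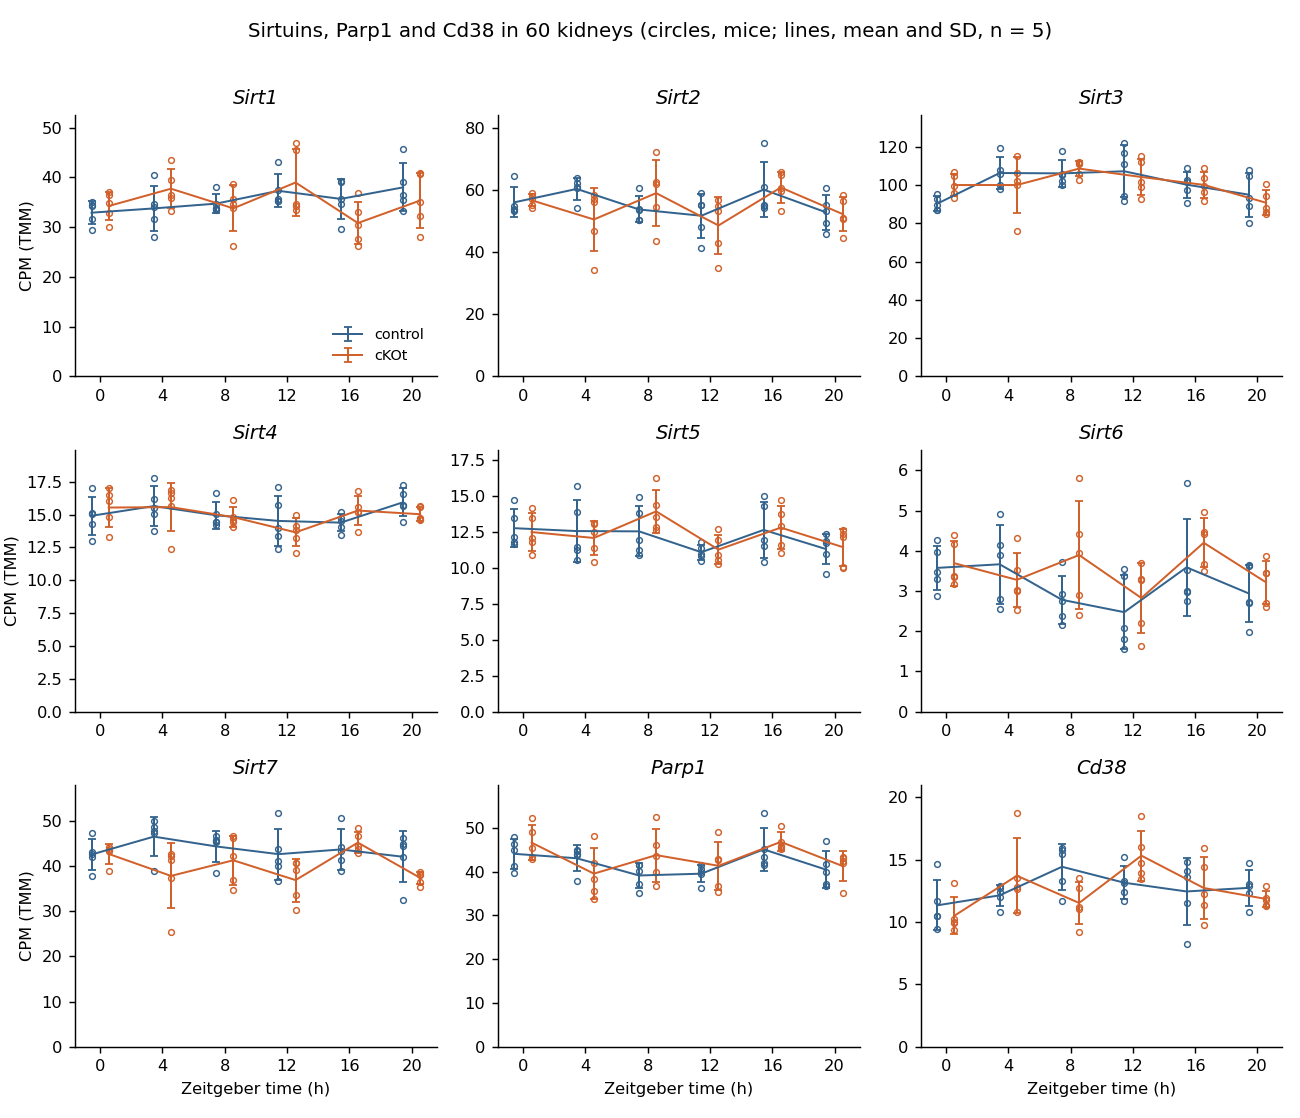
CPM of each enzyme against zeitgeber time in control (blue) and cKOt (orange) mice, with a circle for each mouse and lines through the means with SD (n = 5). The genotypes overlap at each time point, and the axes start at 0, so the daily changes are seen to be small beside the levels.

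The 12 group means of each member were compared with those of 10857 transcripts of at least 5 CPM, on uncorrected log2 CPM values. These correlations share the same libraries and are given as a description of the closest courses. The courses most like that of Sirt1 were Stam2 (Pearson r = 0.933), Cd164 (0.927) and Cdc16 (0.924), and those most like Sirt6 were Atp4a (0.965), Col18a1 (0.951) and Ruvbl2 (0.950). For Sirt7 they were Tlr12 (0.967), Iscu (0.963) and Tbc1d10a (0.960), and for Sirt2 Emc10 (0.985), Bsg (0.979) and Bag6 (0.977), the highest values of the 9. Sirt3 was followed most closely by Cyp4f13 (0.963), Pnpla2 (0.958), the lipase that opens triglyceride stores, and Tcf7l2 (0.950). For Sirt4 they were Nutf2 (0.866), Chst7 (0.824) and Tmem44 (0.814), and for Sirt5 Sh3bp4 (0.934), Slc45a4 (0.894) and Grb7 (0.894). Parp1 was closest to Pofut2 (0.966), Kmt2d (0.948) and Ptbp1 (0.939), and the courses close to that of Cd38 included Zbtb10 (0.863) and Hmgb1 (0.861).

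The genes that work with the 9 enzymes were set in 8 lists, of which 87 of 95 genes were retained. In these lists 27 genes were higher and 27 lower in cKOt mice, and 33 did not pass, a share of 62.1% called beside 50.0% of all transcripts. Among the other ADP-ribosyltransferases and NAD hydrolases, 4 of 15 were higher and 5 lower, with a median log2 fold change of 0.00 beside 0.01 over all transcripts. The largest rises were of Parp9 (0.48 ± 0.026, adjusted p = 1.52e-22) and of Parp2 (0.27 ± 0.032, adjusted p = 1.86e-10), the DNA repair relative of Parp1. The largest falls were of Parp10 (-0.66 ± 0.037, adjusted p = 3.02e-22) and Parp3 (-0.35 ± 0.033, adjusted p = 2.8e-13). These 4 were picked as the extremes of the list and moved several times further than Parp1, whereas other genes of the list moved less than Parp1. The median size of the difference was 0.09 in the list and 0.10 over all transcripts. Of the genes that remove ADP-ribose or act with PARP1, 5 of 10 were higher and 0 lower (median 0.06), led by Polb (0.36), the repair polymerase, and Aplf (0.18).

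**Figure D5:**
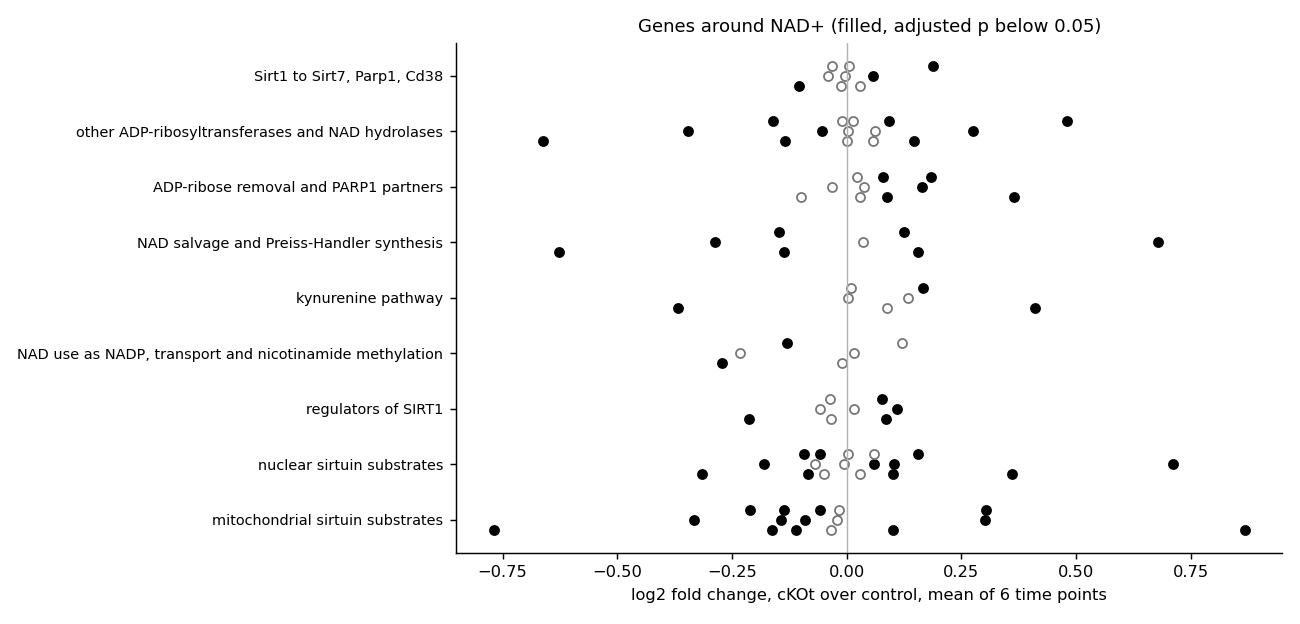
Log2 fold change of cKOt over control, averaged over 6 time points, for the 9 enzymes and the retained genes of 8 lists, with a point for each gene. The 9 enzymes stay between -0.10 and 0.19, while the extremes of the salvage and Preiss-Handler list lie at -0.63 (Nampt) and 0.68 (Nt5e).

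On the side of supply, 3 of 8 genes of salvage and of the Preiss-Handler route were higher and 4 lower (median -0.05). Nampt went from 244.7 CPM in control to 159.3 CPM in cKOt mice (log2 fold change -0.63 ± 0.023, adjusted p = 1.76e-30, edgeR), and Nmrk1, a nicotinamide riboside kinase, fell by 0.29. The paper describes the enzyme of Nt5e, which releases nucleosides from nucleotides outside the cell, as working against this kinase. Nt5e rose by 0.68 and Pnp by 0.16. All 4 differences varied over the day. That of Nampt went from -0.40 at ZT4 to -0.86 at ZT12 (interaction adjusted p = 8.29e-05), and that of Nmrk1 from 0.01 at ZT20 to -0.69 at ZT12 (0.0445). That of Nt5e went from 0.16 at ZT0 to 1.32 at ZT12 (4.57e-06), and that of Pnp from -0.02 at ZT0 to 0.51 at ZT12 (0.000362). In the kynurenine pathway, which makes NAD+ from tryptophan, 2 of 7 genes were higher (Kmo by 0.41 and Qprt by 0.17) and 1 was lower, Afmid, at -0.37 (median of the list 0.09). Of 6 genes for NADP, transport and methylation, 0 were higher and 2 lower, the NAD kinase Nadk (-0.27) and the mitochondrial NAD+ carrier Slc25a51 (-0.13), with a list median of -0.07. Nampt, Nt5e, Kmo and Afmid thus lay outside the 95% intervals of all 9 consumers. These 4 were picked as the extremes of the salvage and kynurenine lists, in which 1 of 8 and 4 of 7 genes did not pass. Sarm1, Nmnat2, Nmrk2, Tdo2, Ido1, Cps1, Otc and Uox were under 1 CPM in all samples and were not tested.

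Of 8 regulators of SIRT1, 3 were higher and 1 lower (median -0.01). Prkaa2, a catalytic subunit of AMPK, was at -0.21 ± 0.026 (adjusted p = 1.04e-09, edgeR), and Prkaa1 was at 0.09 ± 0.022 (adjusted p = 0.00113). Rps19bp1, an activator of SIRT1, was at 0.11 ± 0.042 (adjusted p = 0.0261) and did not pass in DESeq2 (adjusted p = 0.0539) and in 6 other alternatives. Of 17 nuclear proteins that sirtuins bind or deacetylate, the mRNA of 6 was higher and of 5 lower (median 0.00). Arntl (0.71) and Clock (0.36) were highest, and Srebf1 (-0.32) and Foxo3 (-0.18) lowest. Arntl, the targeted gene, is counted as higher by this mean of log2 values, but it was lower in cKOt mice at ZT0 (-0.99) and ZT20 (-0.96) and higher at ZT8 (2.78). Its mean over all times was 20.7 CPM with the deletion, against 22.2 CPM without it.

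Of 16 mitochondrial substrates of SIRT3, SIRT4 and SIRT5, 4 were higher and 9 lower (median -0.07), beside 26.8% and 23.2% of all transcripts. Acadl, the long-chain acyl-CoA dehydrogenase deacetylated by SIRT3, was at -0.77 ± 0.026 (adjusted p = 6.52e-32, edgeR), and Mlycd was at -0.33 ± 0.030 (adjusted p = 3.69e-14). Acss1, which activates acetate in mitochondria, rose by 0.30 ± 0.027 (adjusted p = 3.99e-14). Sirt3, Sirt4 and Sirt5 themselves had intervals within -0.06 and 0.10. Acadl, Mlycd and Acss1 differed between genotypes by more, but they were picked among the extremes of the list, in which 3 of 16 did not pass. The median size of the difference was 0.14 in the list and 0.10 over all transcripts, so such a contrast is not particular to the substrates.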

How the data were processed

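Kidney RNA of 60 mice was sequenced as single reads of 150 cycles from stranded poly(A) libraries. Per the labels, the authors used bcl2fastq, cutadapt (1.8), STAR (2.5.3a) and HTSeq (0.9.1) on GRCm38 and deposited read counts per Ensembl gene for each mouse, without normalization. Reads in no gene took 7.17% to 10.6% and ambiguous reads 0.953% to 1.27% of the counted reads and were left out.

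Groups came from the labels and library batch from a supplementary table. A transcript was retained if any sample reached 1 CPM. Genotype and time were tested with edgeR (4.0.16) in R (4.3.3), using TMM, 12 groups, 2 RUVs factors (removal of unwanted variation from replicate mice) and the quasi-likelihood F test, with Benjamini-Hochberg adjustment over all 15546 transcripts and a threshold of 0.05. Neither RUVSeq nor dryR was installed, so both procedures were re-implemented and tested on simulated data. Intervals use 46 residual degrees of freedom. CPM are TMM-scaled and, like RPKM, were computed here. Levels per length and positions use GENCODE M21, and promoters come from RefSeq.

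Named genes were the 9 members, Arntl, for each list the 2 largest rises and 2 largest falls past the threshold with a mean of 1 CPM or more, and the 3 closest courses per member. Some genes that this rule or the marker lists cover are not reported here. The members, lists and markers were chosen with earlier results of these data known. Alternatives were DESeq2 (1.42.0) size factors and test, limma-trend (limma 3.58.1), no filter, filterByExpr, no RUVs factors, library batch instead, the replicate number as a block, omission of the marked mouse and of each replicate number, and, for rhythms, 1 factor and BIC weights of 0.5 and 0.8. In the main tests the p-values measure the spread between separate mice that remains after the 2 RUVs factors. These factors were estimated from the same mice and then taken as known, so SEs and intervals leave out their uncertainty. Of 120 pairs of replicates none agreed within sampling noise (lowest ratio to Poisson variance 5.61).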

Additional observations from a re-analysis of the deposited data

Results flagged for a closer look

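Of 108 sets of 5 mice (9 genes in 12 groups), 11 had a mouse that stood apart from the other 4 by Dixon's ratio (critical value 0.71), where chance gives about 1 in 20. Among control mice, Sirt1 had a high mouse at ZT8 (38.0 CPM, next 34.6) and at ZT12 (43.0, next 37.4), Sirt2 at ZT0 (64.5, next 54.7) and Sirt6 at ZT16 (5.69, next 3.51). Sirt7 had a low control mouse at ZT4 (39.0 CPM, next 47.2) and at ZT8 (38.4, next 45.4), and Parp1 one at ZT4 (37.8, next 43.8). Among cKOt mice, Sirt4 had a low mouse at ZT4 (12.4 CPM, next 15.7), Sirt7 at ZT0 (38.8, next 43.2) and Parp1 at ZT20 (35.1, next 42.0), and Cd38 had a high mouse at ZT0 (13.1, next 10.2). The low mice of Sirt7 and Parp1 at ZT4 were the same control mouse, the low Sirt7 and high Sirt1 values at ZT8 came from 1 control mouse, and the low Sirt7 and high Cd38 values at ZT0 from 1 cKOt mouse.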

How the results depend on the processing

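Of the 9 members, 3 differed in mean level between genotypes. This number was 1 (Sirt7) when the RUVs factors were dropped or replaced by the library batch, and 1 to 3 on leaving out each replicate number. Sirt3 was called for time in control mice and Cd38 in cKOt mice. The control number was 0 when they were dropped or replaced, and on leaving out replicates it was 0 to 1 in either genotype. Without replicate 2 the 1 member called in cKOt mice was Parp1 (adjusted p = 0.0459), not Cd38. At ZT4, where none passed, 1 member (Sirt7) passed in the DESeq2 test, without RUVs factors and with the batch, and 0 to 1 on leaving out replicates. At ZT8, where 1 passed, 2 (Sirt7 and Cd38) passed with DESeq2 size factors, in the DESeq2 test and with the replicate block, and 0 without RUVs factors and with the batch. Without replicate 4 the 1 call at ZT8 was Cd38. At ZT12 the number went from 1 to 0 without the filter, without RUVs factors, with the batch and, as a range, to 0 to 1 on leaving out replicates. At ZT20 it went from 0 to 1 (Sirt7) in the DESeq2 test and was 0 to 1 on leaving out replicates. The number with a rhythm went from 2 to 1 without the RUVs correction, with the batch regressed out and at a BIC weight of 0.8, and was 1 to 3 on leaving out replicates.

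The sign of 4 members that did not pass turned in some alternatives. For Sirt3 the difference was -0.0065 with DESeq2 size factors, -0.0064 in the DESeq2 test, -0.0018 without the filter, -7e-04 with filterByExpr, -0.0024 without RUVs factors, and -0.0039, -8e-04 and -0.0146 without replicate 2, 3 and 4. For Sirt1 it was 0.0044 without replicate 5, for Sirt2 0.0126 without replicate 1, and for Sirt4 0.0228 and 0.0182 without replicate 1 and 4. On leaving out each replicate number the differences ran from -0.0542 to 0.0044 for Sirt1, from -0.0243 to 0.0126 for Sirt2, from -0.0146 to 0.0331 for Sirt3 and from -0.0414 to 0.0228 for Sirt4. The cause of these changes was not tested. None of these 4 mean differences passed in any setting.

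Replicate numbers did not pair the mice: residuals correlated at 0.0043 over 330 pairs of the same number and at -0.0010 over 1320 pairs of other numbers, and 14 mice correlated best with their own number. The block with RUVs factors moved the count at ZT8 from 1 to 2, adding Cd38, and no other count of members, and 0 members passed the interaction test with it. The precision for Sirt6 is limited by 27 to 113 counts per mouse.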
